A study of Homo sapiens with 15 samples.

Results

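The 9 genes described here encode enzymes that turn lanosterol, the first sterol of the pathway, into cholesterol: CYP51A1, LBR, TM7SF2, MSMO1, NSDHL, HSD17B7, EBP, SC5D and DHCR7. They were chosen by name, and all 9 were among the 18485 gene symbols counted. Of these, 8 were among the 6767 genes with enough counts to be tested, and TM7SF2 was not. The cells were SNB19, an established human glioblastoma line grown in medium with serum, and every group, the control included, had been transduced with a lentiviral vector of the pCHMWS backbone. The groups were ZBTB18 in its full length (FL), its mutated version (FL-mut), the short form Nte (SF-Nte), the mutated short form (SF-mut) and empty vector (EV), with 3 libraries each and 15 in all. ZBTB18 is a zinc finger protein that represses transcription. What the mutations change in the protein is not labelled. Nor is it labelled whether the libraries of a group are separate cultures, so each p-value reflects the spread among libraries, which may be technical.

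Polyadenylated RNA was read as amplified cDNA on the Oxford Nanopore platform, and counts per gene were scaled to CPM, which corrects for the size of the library, with TMM factors. Total counts per library were 803316 to 1393060 in FL, 865997 to 1313573 in FL-mut, 432611 to 603155 in SF-Nte, 315693 to 597414 in SF-mut and 1274474 to 1930245 in EV, so the short-form libraries were the shallowest. SF-mut libraries carry barcode names with a suffix that no other group has. Handling that coincides with SF-mut, or with both short-form groups, cannot be told apart from the construct or its form. ZBTB18 stood between 199.5 and 6858 CPM in the 12 construct libraries, against 4.371 to 7.123 CPM in EV. Of 8 glial and mesenchymal markers 7 had a row, OLIG2 having none, and their summed level was 240.1 to 688.2 CPM in FL, 579.5 to 892.7 in FL-mut, 993.9 to 1178 in SF-Nte, 1031 to 1221 in SF-mut and 495.4 to 1051 in EV. Among them VIM was read in all 15 libraries, S100B was at 0 in 13 of them and GFAP did not exceed 7.527 CPM. VIM had 287.1, 143 and 248.8 CPM in FL, against 521.1, 333.7 and 785.3 CPM in EV (log2 fold change -1.27 ± 0.37, edgeR adjusted p = 0.223, called lower by DESeq2). NES had 1.387, 2.488 and 4.84 CPM in FL, against 17, 13.84 and 21.37 CPM in EV (-2.55 ± 0.78, adjusted p = 0.252). All FL libraries thus lay below all EV libraries for both markers, as for 8.17% of all tested genes. VIM passed the test in SF-Nte against FL (1.755 ± 0.38, edgeR adjusted p = 0.0361), as 1.06% of all tested genes did. Of the 5 markers tested, 4 had a log2 fold change below 0 in FL against EV. These included CD44 (-1.472 ± 0.64) and SOX2 (-0.295 ± 0.77). FABP7 went the other way, with 121.4, 43.54 and 365.9 CPM in FL, against 42.01, 30.6 and 138.9 CPM in EV (1.335 ± 0.78, edgeR adjusted p = 0.79). The sums of immune, epithelial and endothelial markers reached at most 30.82, 151 and 21.37 CPM, with no row for EPCAM, VWF, CD3E or LYZ, and the part of any of these markers in the results was not tested.

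Cholesterol is made in the endoplasmic reticulum, and the steps after lanosterol trim methyl groups from the ring system and then move and reduce its double bonds. CYP51A1 removes the first methyl group, LBR and TM7SF2 each can reduce the double bond this leaves, and MSMO1, NSDHL and HSD17B7 together remove a pair of methyl groups at another carbon. EBP, SC5D and DHCR7 then shift, add and reduce double bonds. Genes of the pathway are known to be switched on together by the transcription factor SREBP2 when the sterol content of the membrane is low. LBR is also a protein of the inner nuclear membrane that binds B-type lamin and chromatin, and it can carry out the same step as TM7SF2.

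The windows around the start sites of 5 of the genes are shown: MSMO1, EBP and CYP51A1, whose levels went together across libraries, DHCR7, whose level was highest in FL-mut, and LBR, which did not follow the others. Each window holds 250 bases before to 50 after the start that RefSeq gives the gene (GRCh38.p14), and runs 5′ to 3′ on the strand of the gene. The positions are chr4:165327419-165327718 on the plus strand for MSMO1, chrX:48521558-48521857 on the plus strand for EBP, chr7:92134428-92134727 on the minus strand for CYP51A1, chr11:71448344-71448643 on the minus strand for DHCR7 and chr1:225428772-225429071 on the minus strand for LBR. Capitals mark matches, on either strand, to CACNCCA, the core of the sterol regulatory element that SREBP reads, to CCAAT, the NF-Y box, to GGGCGG, the GC box of SP1, to the E-box CACGTG, or to CATCTG, the core of the sequence that ZBTB18 is known to bind.
MSMO1: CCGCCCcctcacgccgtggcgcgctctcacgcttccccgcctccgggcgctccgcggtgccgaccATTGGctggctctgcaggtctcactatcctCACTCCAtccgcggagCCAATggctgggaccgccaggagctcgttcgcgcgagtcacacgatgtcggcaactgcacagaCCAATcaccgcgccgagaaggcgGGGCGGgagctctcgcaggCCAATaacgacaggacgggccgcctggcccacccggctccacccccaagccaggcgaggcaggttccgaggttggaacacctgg
EBP: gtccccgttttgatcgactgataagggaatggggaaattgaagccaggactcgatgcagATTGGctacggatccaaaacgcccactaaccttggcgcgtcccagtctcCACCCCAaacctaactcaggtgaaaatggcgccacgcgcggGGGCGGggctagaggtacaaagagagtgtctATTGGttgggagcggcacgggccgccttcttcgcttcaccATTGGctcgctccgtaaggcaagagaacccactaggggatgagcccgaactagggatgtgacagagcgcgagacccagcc
CYP51A1: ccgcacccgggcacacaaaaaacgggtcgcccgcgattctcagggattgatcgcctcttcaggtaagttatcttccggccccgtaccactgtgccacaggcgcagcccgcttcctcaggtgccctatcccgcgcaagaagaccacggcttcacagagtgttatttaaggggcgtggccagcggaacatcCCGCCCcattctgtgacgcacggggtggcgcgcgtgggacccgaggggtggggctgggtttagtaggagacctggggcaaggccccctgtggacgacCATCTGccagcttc
DHCR7: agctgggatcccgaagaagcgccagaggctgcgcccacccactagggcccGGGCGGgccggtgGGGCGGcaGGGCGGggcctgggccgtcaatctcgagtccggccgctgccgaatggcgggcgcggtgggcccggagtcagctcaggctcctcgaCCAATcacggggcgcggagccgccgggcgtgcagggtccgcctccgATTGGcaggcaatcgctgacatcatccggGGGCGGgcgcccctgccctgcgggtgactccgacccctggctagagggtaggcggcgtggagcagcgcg
LBR: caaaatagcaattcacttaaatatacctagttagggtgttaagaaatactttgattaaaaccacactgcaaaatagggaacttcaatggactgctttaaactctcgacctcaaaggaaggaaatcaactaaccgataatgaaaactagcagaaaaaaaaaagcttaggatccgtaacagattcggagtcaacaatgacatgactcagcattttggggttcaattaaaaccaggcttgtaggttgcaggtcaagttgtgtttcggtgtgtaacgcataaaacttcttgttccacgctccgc
All 9 genes matched the RefSeq table, SC5D and DHCR7 with 2 windows each, so there were 11 windows. The 2 of SC5D overlap. CACNCCA lay in a window of 4 of the 9 genes (EBP, MSMO1, SC5D and TM7SF2). By window this was 5 of 11, against 17.6% of the 35116 windows of all genes. CCAAT lay in a window of 7 of the 9 genes, all but CYP51A1 and LBR, or in 8 of 11 windows, against 34.6% of all windows. GGGCGG lay in a window of 7 genes, all but LBR and NSDHL, or in 8 of 11 windows, against 45%. MSMO1 held 4 CCAAT matches and NSDHL 5, of which 1 pair overlapped on opposite strands. CATCTG lay in the window of CYP51A1 alone, 1 of 11, starting 36 bases after the start of the gene, against 14.7% of all windows. CACGTG lay in SC5D alone, in 2 of 11 windows, against 7.26%. The LBR window held none of the 5 strings. A match is a string of letters and shows no binding, and the absence of 1 concerns this window only.

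In cells with either full-length construct, the demethylation enzymes CYP51A1, MSMO1 and HSD17B7 and the later enzymes EBP, SC5D and DHCR7 had higher mean levels than in EV, whereas in cells with either short form the means of most enzymes lay close to EV. The spread between libraries was wide, and no member passed the test in any comparison. The summed level of the 9 enzymes was 481.3, 1000 and 1464 CPM in the FL libraries and 686.7, 496.9 and 1258 CPM in FL-mut. The sum was 466.1, 382 and 393.4 CPM in SF-Nte and 503.3, 252.7 and 367 CPM in SF-mut, against 309.6, 397.8 and 515.5 CPM in EV. Thus 2 of the 3 FL libraries and 2 of the 3 FL-mut libraries lay above every EV library, and FL replicate 1 and FL-mut replicate 2 lay within the EV range. No label says that libraries of the same replicate number are pairs. Pairing FL with EV by number rests on a correlation in these same data alone. Taken so, the sum was higher in FL in 3 of 3 pairs, as were CYP51A1, MSMO1, HSD17B7, EBP and DHCR7. LBR, NSDHL and SC5D were higher in 2 of 3. The share of all genes higher in 3 of 3 pairs was not counted. In bulk RNA, fewer cells that express a gene and less RNA per cell cannot be told apart. Group means were 981.8 ± 491.6 CPM in FL, 813.9 ± 396.2 in FL-mut, 413.8 ± 45.62 in SF-Nte, 374.3 ± 125.5 in SF-mut and 407.6 ± 103.3 in EV (SD, n = 3). The level of ZBTB18 did not order the libraries in the same way: it was 635.3, 3067 and 623.3 CPM in FL replicates 1 to 3 and 906.9, 2800 and 6858 CPM in FL-mut replicates 1 to 3.

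**Figure D1:**
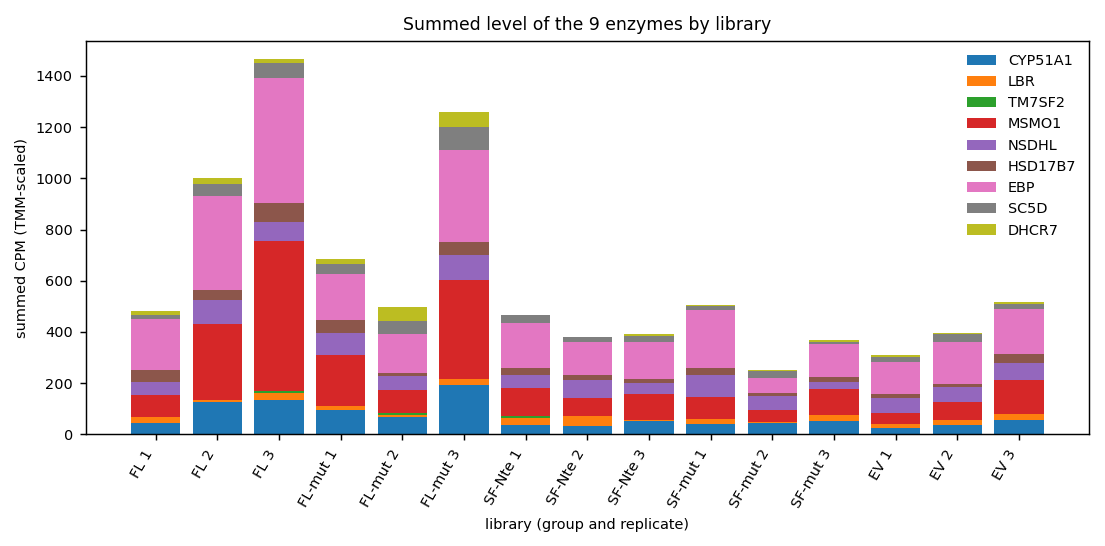
Stacked bars give the summed level of the 9 enzymes (CPM, TMM-scaled) in each of the 15 libraries, with 1 colour per enzyme. FL replicates 2 and 3 (1000 and 1464 CPM) and FL-mut replicates 1 and 3 (686.7 and 1258 CPM) stand above the EV libraries, whose highest is 515.5 CPM.

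MSMO1, the methyl sterol oxidase that starts the removal of the paired methyl groups, had 86, 297.3 and 587.5 CPM in FL and 197.9, 90.54 and 387.8 CPM in FL-mut. MSMO1 had 109.8, 69.63 and 99.61 CPM in SF-Nte and 88.24, 46.23 and 104.6 CPM in SF-mut, against 45.01, 70.67 and 131.8 CPM in EV. In FL 2 libraries and in FL-mut 2 libraries lay above all EV libraries, and the remaining library of each group overlapped EV. Against EV, its log2 fold change was 1.98 ± 0.63 (SE) in FL (edgeR adjusted p = 0.289) and 1.46 ± 0.62 in FL-mut (adjusted p = 0.426). Without FL replicate 3 the FL value was 1.19, and without FL-mut replicate 3 the FL-mut value was 0.77.

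CYP51A1, the cytochrome P450 that removes the first methyl group, had 43, 124.4 and 135.5 CPM in FL and 94.93, 67.91 and 193.2 CPM in FL-mut. CYP51A1 had 36.6, 31.99 and 52.29 CPM in SF-Nte and 39.22, 43.15 and 53.31 CPM in SF-mut, against 24.51, 35.7 and 56.09 CPM in EV. All FL-mut libraries lay above all EV libraries, and FL replicate 1 lay inside the EV range. The log2 fold change was 1.38 ± 0.50 in FL (edgeR adjusted p = 0.372) and 1.62 ± 0.50 in FL-mut (adjusted p = 0.257), or 1.03 without FL-mut replicate 3. Its exons overlap those of 2 genes on the same strand, AC000120.2 and AC000120.3, and of an antisense gene, CYP51A1-AS1, none with a row in the table, and whether the counts used strand is not given in the sources used here.

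NSDHL, the dehydrogenase that follows MSMO1, had 51.32, 93.29 and 73.56 CPM in FL and 85.84, 54.33 and 98.06 CPM in FL-mut. NSDHL had 50.08, 67.75 and 44.82 CPM in SF-Nte and 83.34, 55.48 and 26.65 CPM in SF-mut, against 56.01, 59.74 and 68.56 CPM in EV. Every construct group overlapped EV, and the log2 fold changes were 0.24 ± 0.42 in FL and 0.37 ± 0.42 in FL-mut (edgeR adjusted p = 0.965 and 0.796).

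HSD17B7, the ketoreductase of the same complex, had 49.24, 36.07 and 72.59 CPM in FL and 52.51, 13.58 and 51.61 CPM in FL-mut. HSD17B7 had 28.89, 22.58 and 14.94 CPM in SF-Nte and 29.41, 12.33 and 18.45 CPM in SF-mut, against 15.5, 10.2 and 33.83 CPM in EV. All FL libraries lay above all EV libraries, by a narrow margin between FL replicate 2 and EV replicate 3, and FL-mut replicate 2 lay among the EV libraries. The log2 fold change was 1.42 ± 0.58 in FL (edgeR adjusted p = 0.499) and 0.998 ± 0.58 in FL-mut (adjusted p = 0.569). The FL-mut value was 0.64 without EV replicate 2 and 1.55 without EV replicate 3. The value is uncertain because of a near copy on chromosome 10, HSD17B7P2. The longest annotated transcripts of the pair were 99.5% identical over 410 aligned bases, and the counts of the copy were 0.25 to 0.52 times those of HSD17B7 in all 15 libraries (median 0.4). The copy had log2 fold changes of 1.79 ± 0.72 in FL and 1.26 ± 0.71 in FL-mut, and how the counting divided reads between the pair is not given in the sources used here.

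LBR and TM7SF2 encode the enzymes that can reduce the double bond left by CYP51A1. LBR had 22.89, 11.19 and 27.1 CPM in FL and 17.17, 9.054 and 21.38 CPM in FL-mut. LBR had 26.97, 41.4 and 4.98 CPM in SF-Nte and 19.61, 6.165 and 20.5 CPM in SF-mut, against 15, 19.67 and 24.04 CPM in EV. Each construct group overlapped EV, with log2 fold changes of 0.07 ± 0.64 in FL and -0.28 ± 0.64 in FL-mut (edgeR adjusted p = 0.997 and 0.92). The sign of these small values changed with the fit. TM7SF2 had 6 counts in FL replicate 3, 4 in FL-mut replicate 2 and 4 in SF-Nte replicate 1, and 0 in the other 12 libraries, so 14 counts were read in all. All 3 values are even, and exons of TM7SF2 overlap those of VPS51 on the same strand. In EV the 0 counts allow up to 0.667 CPM over the group (3 counts, counting error only), and no comparison was made.

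**Figure D2:**
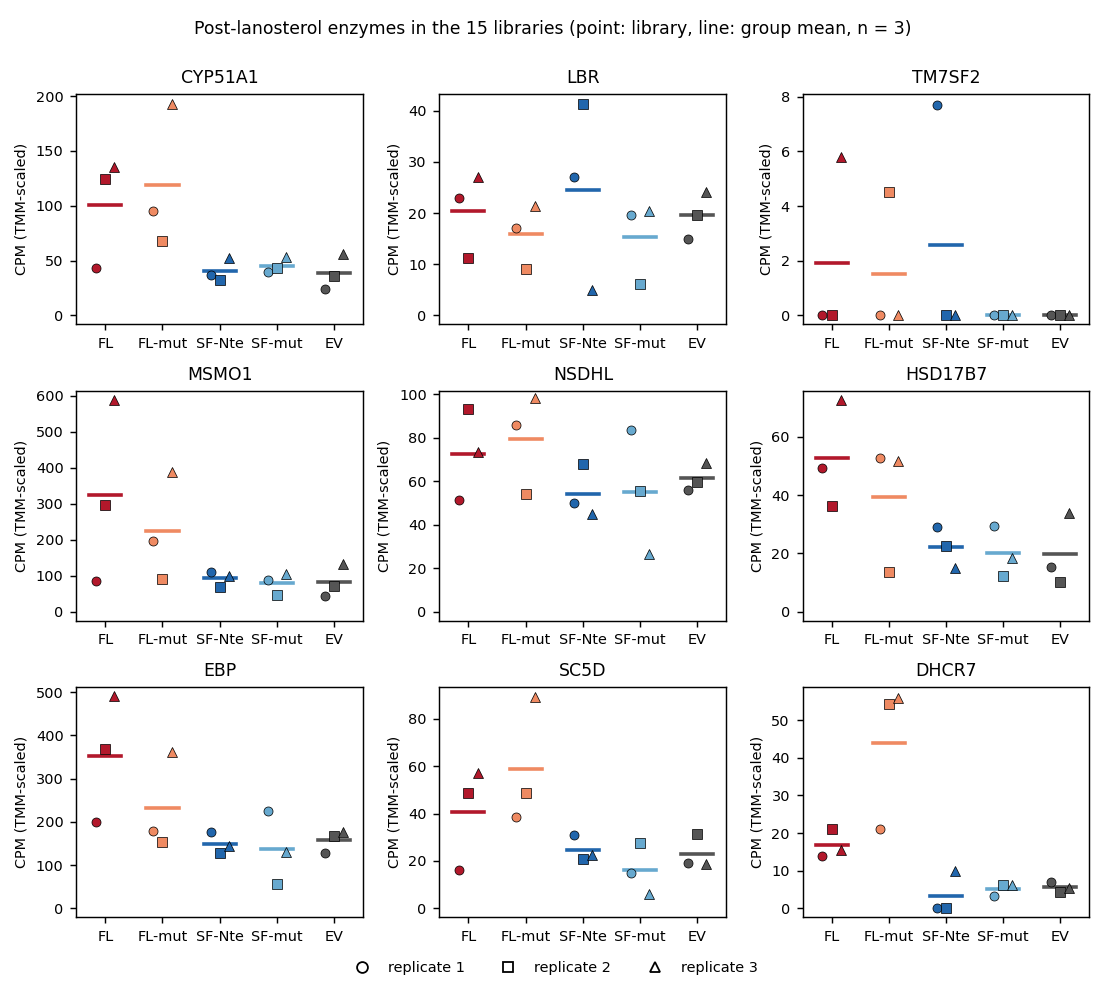
Each panel shows 1 enzyme, with the level (CPM, TMM-scaled, linear axis) of each library as a point and the mean of each group of 3 as a line. In the panels of MSMO1, CYP51A1 and EBP replicate 3 is the highest library of FL and of FL-mut (587.5 and 387.8 CPM for MSMO1), whereas the highest LBR library is SF-Nte replicate 2 (41.4 CPM).

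EBP, the isomerase that shifts the ring double bond, had 199, 368.2 and 489.8 CPM in FL and 178.8, 153.9 and 360.5 CPM in FL-mut. EBP had 175.3, 128 and 144.4 CPM in SF-Nte and 225.5, 55.48 and 131.2 CPM in SF-mut, against 127.5, 166.1 and 177.2 CPM in EV. All FL libraries lay above all EV libraries, and FL-mut overlapped EV. The log2 fold change was 1.17 ± 0.46 in FL (edgeR adjusted p = 0.452) and 0.56 ± 0.45 in FL-mut (adjusted p = 0.709), or 0.037 without FL-mut replicate 3.

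SC5D, the desaturase that follows EBP, had 15.95, 48.51 and 57.11 CPM in FL and 38.38, 48.67 and 89.21 CPM in FL-mut. SC5D had 30.82, 20.7 and 22.41 CPM in SF-Nte and 14.71, 27.74 and 6.151 CPM in SF-mut, against 19, 31.33 and 18.7 CPM in EV. All FL-mut libraries lay above all EV libraries, and FL replicate 1 lay below them. The log2 fold change was 0.80 ± 0.56 in FL (edgeR adjusted p = 0.84) and 1.35 ± 0.56 in FL-mut (adjusted p = 0.415). Leaving out replicate 3, these values were 0.44 in FL and 0.86 in FL-mut.

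DHCR7, the reductase whose loss causes Smith-Lemli-Opitz syndrome, had the largest fold change of the 8 tested members in FL-mut against EV. It had 13.87, 21.15 and 15.49 CPM in FL and 21.21, 54.33 and 56.03 CPM in FL-mut. DHCR7 had 0, 0 and 9.961 CPM in SF-Nte and 3.268, 6.165 and 6.151 CPM in SF-mut, against 7.001, 4.371 and 5.342 CPM in EV. All libraries of FL and of FL-mut lay above all EV libraries. The log2 fold change was 2.94 ± 0.78 in FL-mut (edgeR adjusted p = 0.169, rank 67 of 6767 genes by p) and 1.55 ± 0.76 in FL (adjusted p = 0.691). These levels rest on few reads, with 20, 17 and 16 counts in FL and 21, 48 and 76 counts in FL-mut, against 14, 6 and 6 counts in EV. DHCR7 reached the filter on low counts only through the libraries of FL and FL-mut, so its difference from the other groups is in part a condition of its being tested. In SF-Nte replicates 1 and 2 its 0 counts allow up to 5.778 and 5.646 CPM (3 counts per library, counting error only), which lies inside the EV range of 4.371 to 7.001 CPM, and replicate 3 had 4 counts.

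FL against EV and FL-mut against EV asked what each full-length construct changed, and the comparisons share the EV libraries. In FL, 0 of the 8 tested members passed an edgeR adjusted p of 0.05, a threshold that 0.31% of all tested genes passed. At an unadjusted p under 0.05, 4 were higher (CYP51A1, MSMO1, HSD17B7 and EBP), against 3.75% of all tested genes, and DESeq2 called 0 members and 2.63% of the genes it gave an adjusted p. In FL-mut, 0 passed (0.192% of all tested genes), 4 were higher at an unadjusted p under 0.05 (CYP51A1, MSMO1, SC5D and DHCR7, against 5.75%), and DESeq2 called 2, CYP51A1 and DHCR7, and 2.37% of all genes. The members' libraries did not overlap EV for 3 in FL, HSD17B7, EBP and DHCR7 (8.75% of all tested genes were higher in this way), and for 3 in FL-mut, CYP51A1, SC5D and DHCR7 (8.36%). Without DHCR7, which was tested only through its level in these groups, 2 members did not overlap EV in FL and 2 in FL-mut, and 4 and 3 had an unadjusted p under 0.05. The median log2 fold change of the 8 was 1.27 in FL and 1.18 in FL-mut, beside -0.0069 and 0.036 over all tested genes, and without DHCR7 it was 1.17 and 0.998. With 1 library left out at a time, the median of the members was between 0.953 and 1.42 in FL and between 0.737 and 1.41 in FL-mut.

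**Figure D3:**
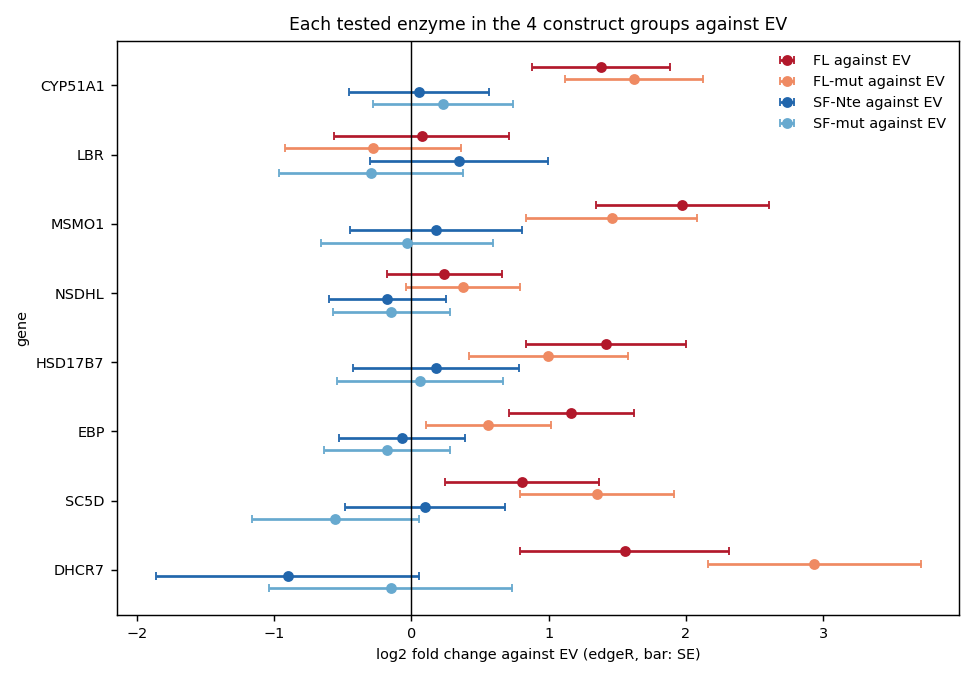
Points are log2 fold changes of the 8 tested enzymes in the 4 construct groups against EV, with the standard error as a bar. The points of FL and FL-mut for MSMO1, CYP51A1, HSD17B7, EBP, SC5D and DHCR7 lie right of 0, between 0.56 and 2.94, and those of SF-Nte and SF-mut lie between -0.90 and 0.35 for all 8 enzymes.

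In the short-form groups the enzymes were set against those of EV too. For SF-Nte, 0 of 8 members passed (0.0443% of all tested genes), 0 had an unadjusted p under 0.05 (7.23% of all tested genes) and DESeq2 called 0 (0.614%). Their log2 fold changes lay between -0.90 for DHCR7 and 0.35 for LBR, with a median of 0.079 beside -0.13 over all genes. In SF-mut, 0 passed (0.0591%), 0 had an unadjusted p under 0.05 (5.36%) and DESeq2 called 0 (0.324%), with log2 fold changes from -0.56 for SC5D to 0.23 for CYP51A1 and a median of -0.149 beside -0.023. No member had libraries apart from EV in either group, against 6% of genes higher and 11.3% lower for SF-Nte, with 2.9% higher and 7.68% lower for SF-mut. Standard errors of the members were 0.43 to 0.96 for SF-Nte and 0.43 to 0.88 for SF-mut. Over all 4 constructs together, 0 of 8 passed (0.222%), 0 had an unadjusted p under 0.05 (5.33%), DESeq2 called 0 (0.624%), and the highest value was that of MSMO1, 0.89 ± 0.52.

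Groups with the 2 forms were compared directly, in SF-Nte against FL and in SF-mut against FL-mut. ZBTB18 itself stood at 470, 199.5 and 234.1 CPM in SF-Nte, below all FL libraries (635.3, 3067 and 623.3 CPM). In that comparison the form, the level of ZBTB18 and any handling shared by the short-form libraries cannot be told apart. In SF-mut ZBTB18 stood at 853, 3631 and 896 CPM, which overlapped FL-mut (906.9, 2800 and 6858 CPM). MSMO1 (-1.80 ± 0.64, edgeR adjusted p = 0.217), EBP (-1.24 ± 0.46, 0.246), DHCR7 (-2.46 ± 0.93, 0.254) and CYP51A1 (-1.33 ± 0.51, 0.269) had the lowest adjusted p in SF-Nte against FL. All SF-Nte libraries lay below all FL libraries for EBP, HSD17B7 and DHCR7, 3 of 8 members, against 14.6% of all tested genes. In SF-mut against FL-mut, DHCR7 (-3.09 ± 0.86, adjusted p = 0.225), SC5D (-1.91 ± 0.61, 0.28) and CYP51A1 (-1.39 ± 0.51, 0.367) had libraries below all FL-mut libraries, against 8.02% of genes. DHCR7 was tested only through its level in the full-length groups, and without it 2 members did not overlap in each of these comparisons. In both comparisons 0 of 8 members passed, against 1.06% and 0.163% of all tested genes. At an unadjusted p under 0.05, 4 members were lower in each (7.95% and 5.85% of all tested genes), or 3 in each without DHCR7. DESeq2 called 0 in SF-Nte against FL (4.15% of all genes) and 1, DHCR7, in SF-mut against FL-mut (1.92%). The remaining values for SF-Nte against FL were -1.24 for HSD17B7, -0.70 for SC5D, -0.42 for NSDHL and 0.27 for LBR. For SF-mut against FL-mut they were -1.49 for MSMO1, -0.93 for HSD17B7, -0.74 for EBP, -0.52 for NSDHL and -0.0086 for LBR. The median over the 8 was -1.24 and -1.16, beside -0.151 and -0.09 over all tested genes, and without DHCR7 it was -1.24 and -0.935. Without FL replicate 3 MSMO1 was at -1.02 and SC5D at -0.35 in SF-Nte against FL, and without FL-mut replicate 3 MSMO1 was at -0.86, CYP51A1 at -0.87 and EBP at -0.27 in SF-mut against FL-mut. Without SF-Nte replicate 3 the DHCR7 libraries left in SF-Nte were both at 0, and the fitted value is then no measure of size. The short-form libraries were also the shallower ones. With every library thinned to the total of the shallowest, 315693 counts, MSMO1 was at -1.94 and EBP at -1.37 in SF-Nte against FL, and SC5D at -2.12 and CYP51A1 at -1.34 in SF-mut against FL-mut, while DHCR7 no longer had enough counts to be tested. The part of depth in these differences was not tested further.

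The mutation was tested within each form. In FL-mut against FL, DHCR7 had the highest value, 1.38 ± 0.73 (edgeR adjusted p = 0.459), with all FL-mut libraries above all FL libraries, as for 8.97% of genes. The margin was narrow, 21.21 CPM in FL-mut replicate 1 against 21.15 CPM in FL replicate 2, or 21 and 17 counts. EBP had the lowest, -0.61 ± 0.45 (adjusted p = 0.625), or -1.11 without FL-mut replicate 3 and -0.31 without FL replicate 3. Of the 8 members 0 passed (0.0887% of all tested genes), 0 had an unadjusted p under 0.05 (12.1%) and DESeq2 called 0 (2.65%). In SF-mut against SF-Nte, where 0% of tested genes passed, the members lay between -0.66 and 0.75, 0 had an unadjusted p under 0.05 (8.33%) and DESeq2 called 0 (0.0217%). The interaction of mutation and form, the mutation effect in the short form minus that in the full-length form, lay between -1.205 and 0.50 for the members, with adjusted p of 1 for all 8 (0.0296% of all tested genes passed), 0 at an unadjusted p below 0.05 (4.65%) and DESeq2 calling 0 (0.0379%). A p that misses the threshold does not show that the groups are alike.

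Across the 15 libraries the pairs of enzymes without LBR all had positive correlations. Pearson's r of log2 CPM, given as a description over 15 libraries that share depth and scaling within each library, was highest between CYP51A1 and MSMO1 (0.915) and between MSMO1 and EBP (0.871). Over the 21 pairs without LBR it was between 0.282 and 0.915 with a median of 0.571, and over the 7 pairs with LBR between -0.398 and 0.486. After group means were taken out, CYP51A1 and MSMO1 still had r = 0.909 and MSMO1 and EBP r = 0.804. Over all 21 pairs without LBR this r was between -0.445 and 0.909 with a median of 0.367, and 4 pairs were below 0, HSD17B7 with DHCR7 being the lowest. DHCR7 did not follow the others within groups, with r = -0.236 between its deviations and those of the mean of the other members, against 0.895 for MSMO1. The 5 tested genes outside the members whose pattern was most like the mean of the members were KCNN2 (r = 0.933), ZNF80 (0.925), MED9 (0.925), TPH2 (0.924) and MICA (0.924), by Pearson's r of log2 CPM over 15 libraries. ZNF80 stood at 47.85, 1287 and 347.5 CPM in FL, 233.3, 98.47 and 1851 in FL-mut and 22.5, 29.14 and 32.05 in EV, so its highest libraries were FL replicate 2 and FL-mut replicate 3, and all FL and FL-mut libraries lay above all EV libraries.

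The steps before lanosterol were followed in 12 mevalonate and squalene genes, of which 9 were tested. In FL, 8 of the 9 had a log2 fold change above 0, as 49.6% of all tested genes had, with a median of 1.64. By edgeR 0 passed the adjusted p, 5 were higher at an unadjusted p under 0.05 (3.75% of all tested genes), and DESeq2 called 1, HMGCS1 (2.63%). In FL-mut, 9 of 9 were above 0 (51.8% of all tested genes), with a median of 1.34, 0 passed, 1 was higher at an unadjusted p under 0.05 (5.75%), and DESeq2 called 1, FDFT1 (2.37%). FDFT1, squalene synthase, had 903.1 ± 472.7 CPM in FL and 1051 ± 826.3 in FL-mut, against 265 ± 41.45 in EV (SD, n = 3 each), with log2 fold changes of 1.77 ± 0.54 (SE) and 1.99 ± 0.54. HMGCS1, the synthase that opens the mevalonate pathway, had 91.1 ± 50.39 CPM in FL and 42.39 ± 34.62 in FL-mut, against 12.12 ± 12.69 in EV. In SF-Nte, 6 of 9 were above 0 (42.8%) and the median was 0.046, with FDPS at 1522 ± 296.4 CPM against 1114 ± 375.2 in EV and IDI1 at 34.87 ± 13.39 against 22.16 ± 9.369. In SF-mut, 6 of 9 were above 0 (48.4%) and the median was 0.168, with PMVK at 43.17 ± 45.44 CPM against 15.42 ± 7.427 in EV and LSS, which makes lanosterol, at 10.58 ± 9.178 against 21.22 ± 8.702. In both short-form groups 0 of the 9 passed, 0 had an unadjusted p under 0.05 and DESeq2 called 0. The mean log2 CPM of the 8 tested post-lanosterol enzymes had r = 0.932 with that of the 9 earlier genes over the 15 libraries, and 0.863 after group means were taken out. By r with the mean of the members, FDFT1 and HMGCS1 ranked 18 and 19 of the 6767 tested genes (0.894 each).

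**Figure D4:**
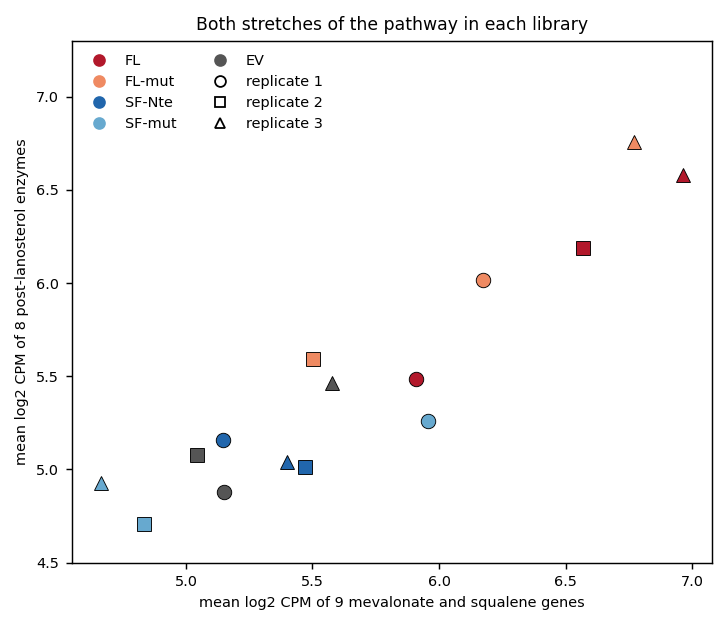
Each point is 1 library, with the mean log2 CPM of the 9 tested mevalonate and squalene genes on the x axis and that of the 8 tested post-lanosterol enzymes on the y axis, colours for groups and shapes for replicates. FL replicates 2 and 3 and FL-mut replicates 1 and 3 lie at the upper right (y from 6.017 to 6.756), and FL replicate 1 and FL-mut replicate 2 lie near EV replicate 3 (5.483 and 5.59 against 5.466).

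Of 12 genes of the SREBP system and of sterol uptake, 9 were tested and by edgeR 0 passed in any comparison with EV. At an unadjusted p under 0.05, 2 genes were higher in FL (3.75% of all tested genes), 1 gene in FL-mut (5.75%), 1 gene in SF-Nte (1.66%) and 0 genes in SF-mut (1.6%). DESeq2 called NPC1 and INSIG1 in FL (2.63% of all genes), NPC1 in FL-mut (2.37%), NPC1 over all constructs together (0.624%) and 0 in each short-form group. The median log2 fold change of the 9 against EV was 0.072 in FL cells and 0.431 in FL-mut cells, and in short-form cells it was 0.133 with SF-Nte and -0.461 with SF-mut. In FL and in FL-mut the 2 of lowest p were NPC1, a lysosomal cholesterol exporter, and INSIG1, which holds SREBP in the endoplasmic reticulum when sterols are plentiful. NPC1 had 46.47, 719 and 218.8 CPM in FL and 158.6, 66.78 and 1192 in FL-mut, against 13.5, 13.11 and 17.81 in EV. Its libraries in both groups thus lay above all EV libraries, with log2 fold changes of 4.46 ± 1.06 in FL and 4.99 ± 1.08 in FL-mut (edgeR adjusted p = 0.114 and 0.0785). INSIG1 had 30.51, 136.8 and 150 CPM in FL and 25.25, 10.19 and 38.34 in FL-mut, against 4.501, 8.742 and 15.14 in EV. Its log2 fold change was 3.49 ± 0.88 in FL and 1.41 ± 0.84 in FL-mut (edgeR adjusted p = 0.131 and 0.578). The lowest FL library of INSIG1 was replicate 1, which also had the lowest summed level of the 9 post-lanosterol enzymes among the FL libraries. In SF-Nte INSIG2, a relative of INSIG1, was at 75.37 ± 25.17 CPM against 22.72 ± 14.56 in EV. In SF-mut the 2 of lowest p were SREBF1, at 4.09 ± 4.085 CPM against 16.38 ± 6.652 in EV, and SCAP, at 6.141 ± 5.419 against 16.87 ± 9.154 (SD, n = 3 each).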

How the data were processed

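Per the labels, RNA of SNB19 cells was extracted with Trizol, mRNA was captured on beads, and cDNA amplified by PCR was barcoded and sequenced with Oxford Nanopore kits. The deposited values are raw counts for each gene symbol. The build was GRCh38 per the submitters' processing notes, while the sources used here give no aligner, counter, strand setting or annotation. Reads of amplified cDNA without molecular identifiers are not independent molecules, so floors cover counting error only.

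Groups came from sample titles. The test was that of edgeR 4.0.16, run in R 4.3.3: filterByExpr (minimum count 10, minimum total 15) kept 6767 of 18485 genes, and after TMM scaling the quasi-likelihood fit took all 15 libraries, with each group as 1 coefficient, with Benjamini-Hochberg adjustment over all genes tested at 0.05. Contrasts were 4 constructs against EV, all constructs against EV, 4 comparisons between constructs and the interaction, 10 in all. The standard error is the fold change divided by the square root of F. The script was tested on simulated data. Correlations used log2 CPM with a prior count of 2. Alternatives were DESeq2 1.42.0, its size factors, no filter, a replicate block, thinning, the compared libraries alone and leaving out 1 library.

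The members and lists were chosen with earlier results of these data known. Named genes are the members, ZBTB18, the 5 genes of most similar pattern and, per context list, genes past the threshold and the 2 of lowest p against EV; some named by this rule are not reported here. No replicates looked like repeats of 1 library (chi-square per gene from 4.23 to 38.0). Same-number libraries had deviations correlated above 0.1 in all 3 pairs for 2 of 10 pairs of groups, FL with EV (0.362, 0.148 and 0.454) and FL with SF-mut (0.153, 0.148 and 0.299). The numbers were therefore taken to pair FL and EV, on the evidence of this correlation alone, since no label explains the numbers. SF-mut with EV did not meet it (0.0438, -0.0511 and 0.405), so the numbers do not pair these groups alike. Positions of windows are from RefSeq and overlaps from GENCODE, both on GRCh38.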

Additional observations from a re-analysis of the deposited data

How the results depend on the processing

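The number of members past the threshold was 0 in all 10 comparisons, and it stayed at 0 in every fit with 1 library left out, with DESeq2 size factors, with thinned counts and with the compared libraries alone (a fit not distinct for all constructs together). With the replicate number as a block it was again 0 in all 10, FL against EV included, so the block changed no call of a member. That block took the numbers as shared by every group, and a pairing of FL and EV alone was not tested. Without a filter on low counts it was 1 in FL against EV (MSMO1), 1 in FL-mut against EV (DHCR7) and 1 in SF-Nte against FL (MSMO1). In these 3 unfiltered fits 202, 219 and 301 of all genes were called, and by DESeq2 137, 149 and 291, against 21, 13 and 72 in the filtered edgeR fits. By DESeq2 it was 2 in FL-mut against EV and 1 in SF-mut against FL-mut. Over the alternatives, the folds of members given singly above were refitted 527 times, of which 503 kept direction and side of the threshold, 6 newly passed and 18 changed sign. LBR in FL against EV was between -0.1852 and 0.3551 without 1 library and -0.0007506 without a filter; in FL-mut against EV it was 0.2532 with thinned counts; in SF-Nte against FL between -0.3548 and 0.7202 without 1 library; in SF-mut against FL-mut between -0.2799 and 0.3227 without 1 library, 0.001055 by DESeq2 and 0.005013 with the compared libraries alone. LBR in SF-Nte against EV was between -0.3044 and 0.774 without 1 library. CYP51A1 in SF-mut against EV was between -0.02879 and 0.5095 without 1 library and -0.2493 with thinned counts, EBP in the interaction between -0.1023 and 0.9664 without 1 library, and NSDHL in FL against EV -0.03283 with thinned counts. The cause of these changes was not tested.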

Other observations

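Of 6 tested genes that act beside the post-lanosterol enzymes, mostly electron carriers, among 8 listed, 6 had a log2 fold change above 0 in FL-mut (51.8% of all tested genes), with a median of 0.82, and 4 in FL (49.6%), with a median of 0.276. By edgeR 0 passed in any comparison with EV, 2 were higher in FL-mut at an unadjusted p under 0.05 (5.75% of all tested genes), 1, POR, was lower in SF-mut (3.77%), and DESeq2 called 0. The 2 in FL-mut were CYB5R3, which reduces cytochrome b5, at 116 ± 36.82 CPM in FL-mut, against 55.33 ± 12.29 in EV, and CYB5B, a cytochrome b5, at 260.3 ± 44.28 CPM in FL-mut, against 167.5 ± 5.063 in EV (SD, n = 3 each). POR, the electron donor of CYP51A1, had 0 counts in all SF-mut libraries. This allows up to 2.107 CPM over the group (3 counts, counting error only), or 4.902, 9.247 and 6.151 CPM in replicates 1 to 3. In EV POR had 24.51, 7.285 and 0 CPM (mean 10.6 ± 12.58), so the groups overlapped. FL replicate 2 and SF-Nte replicate 3 were also at 0.

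Among 11 genes of the nuclear envelope, where LBR sits, and of chromatin proteins such as CBX5, 9 were tested. By edgeR 0 passed in any comparison with EV, and DESeq2 called 0 there. At an unadjusted p under 0.05, 2 were lower in SF-Nte (5.57% of all tested genes) and 1, CBX5, was higher (1.66%). At this p 1 was lower in SF-mut (3.77%), and 0 differed in FL or FL-mut. TMPO, a lamina-associated protein, had 18.63 ± 8.052 CPM in SF-Nte and 26.95 ± 20.76 in SF-mut, against 63.11 ± 4.896 in EV. LMNB1, a B-type lamin that LBR binds, had 4.02 ± 2.334 CPM in FL-mut and 2.456 ± 2.168 in SF-mut, against 15.68 ± 5.067 in EV. LMNA, the A-type lamin gene, had 4.45 ± 3.989 CPM in SF-Nte, against 26.08 ± 23.03 in EV (SD, n = 3 each).

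Of 10 genes of sterol efflux and oxysterol handling, 5 were tested, by edgeR 0 passed in any comparison with EV, 0 had an unadjusted p under 0.05 and DESeq2 called 0. SOAT1, which esterifies cholesterol, had 50.48 ± 8.116 CPM in FL, 83.63 ± 22.39 in SF-Nte and 49.74 ± 26 in SF-mut, against 65.94 ± 14.88 in EV. ABCA1, the efflux pump, had 2.434 ± 2.362 CPM in FL-mut, against 8.403 ± 7.237 in EV (SD, n = 3 each).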
